A study of Mus musculus with 6 samples.

Results

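The axon guidance ligands and receptors of mouse P19 cells were followed through neural differentiation in a line that expresses AICD and in a line with the empty vector. The set took every gene whose symbol starts with Sema, Plxn, Epha, Ephb, Efna, Efnb, Slit, Robo or Unc5, apart from the Slitrk genes, together with the netrins and netrin-G proteins, Dcc, Neo1 and the neuropilins Nrp1 and Nrp2. On the array 69 symbols met this rule, and 64 passed the filter of a probe well above background on 2 or more arrays out of 6, as did 13381 genes in all. Of the 64, 63 encode guidance proteins: 7 ephrins, 13 Eph receptors, 6 class 3 semaphorins, 13 semaphorins of classes 4 to 7, 9 plexins and neuropilins, 4 netrins or netrin-G proteins, 5 netrin receptors (Dcc, Neo1 and the Unc5 proteins), 3 Slits and 3 Robos. The remaining member, Unc50, was caught by the prefix and is not a guidance gene. It stayed in the counts. The limma fits under the main settings did not call it, while quantile normalization called it higher on aggregation (0.68) and over the whole course (0.71). Epha6, Ntng2, Plxnb3 and Unc5cl were well above background on 0 arrays and were left out, as was Unc5d, whose probes reached it on 0 and 1 arrays. Sema3d, with 2 arrays, lay just inside the threshold. Efna3, Plxnb2, Robo3 and Sema3g were not analysed here.

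P19 is a mouse embryonal carcinoma line, and retinoic acid turns its aggregates towards neurons and glia. AICD is the intracellular domain that gamma-secretase cuts from the amyloid precursor protein. The AICD line was compared with a control line that carries the pCDNA vector alone. The labels do not say whether a line is a single clone, nor which promoter drives AICD. The states were undifferentiated cells, aggregates after 4 days in 5e-07 M all-trans retinoic acid (aggregated), and cells 2 days after those aggregates were replated (differentiated). Total RNA was hybridised to 6 Agilent one-colour arrays, 1 for each line and state, so there was no replicate within any line and state. Fewer expressing cells and less RNA per cell cannot be told apart in these bulk samples.

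Guidance cues steer growing axons by binding receptors on the growth cone. Ephrins bind Eph receptors at cell contacts, semaphorins bind plexins (the secreted class 3 proteins mostly with a neuropilin), netrins attract through Dcc and Neo1 and repel through Unc5 receptors, and Slits repel through Robo receptors. Many of these proteins also act outside the nervous system, in blood vessel growth, epithelia and cell sorting, and several are present in pluripotent cells.

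A group of 7 members had the same detection pattern, with both undifferentiated arrays below the detection limit and all 4 later arrays above it: Dcc, Epha3, Nrp1, Ntn4, Plxna4, Robo2 and Unc5c. The share of all tested genes with this pattern is not given, so the pattern cannot be called particular to the members. Since retinoic acid receptors bind direct repeats of the motif AGGTCA, the RefSeq promoter windows of the members (250 bases before to 50 after the start, 300 in all, build GRCm38.p6) were searched on both strands for AGGTCA and for its direct repeats with 5 or 2 bases between. A direct repeat would count as a single motif too. Of the 64 members, 55 matched the table, with 69 windows. Dcc and Plxna4 of that group had no window there. The sequences of 4 genes of that group are shown, those with 1 window in the table, and beside them Unc5b, a netrin receptor that fell on aggregation. Epha3 is the window chr16:63864126-63864425 on the minus strand, Nrp1 chr8:128358823-128359122 on the plus strand, Ntn4 chr10:93640799-93641098 on the plus strand, Unc5c chr3:141465314-141465613 on the plus strand and Unc5b chr10:60831532-60831831 on the minus strand. They are written 5′ to 3′ in the direction of transcription, with a match to AGGTCA on either strand in capitals.
Epha3: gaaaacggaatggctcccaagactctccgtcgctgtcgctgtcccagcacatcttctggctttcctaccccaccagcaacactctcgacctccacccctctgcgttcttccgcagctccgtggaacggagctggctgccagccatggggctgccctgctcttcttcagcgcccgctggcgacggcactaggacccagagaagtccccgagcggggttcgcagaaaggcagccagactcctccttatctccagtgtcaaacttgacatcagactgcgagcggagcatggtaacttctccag
Nrp1: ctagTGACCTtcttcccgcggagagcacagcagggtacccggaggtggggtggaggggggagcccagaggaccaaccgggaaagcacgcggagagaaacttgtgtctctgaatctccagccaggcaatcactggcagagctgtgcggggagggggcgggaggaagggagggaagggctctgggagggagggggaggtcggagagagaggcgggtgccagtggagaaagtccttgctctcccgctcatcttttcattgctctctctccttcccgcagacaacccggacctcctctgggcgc
Ntn4: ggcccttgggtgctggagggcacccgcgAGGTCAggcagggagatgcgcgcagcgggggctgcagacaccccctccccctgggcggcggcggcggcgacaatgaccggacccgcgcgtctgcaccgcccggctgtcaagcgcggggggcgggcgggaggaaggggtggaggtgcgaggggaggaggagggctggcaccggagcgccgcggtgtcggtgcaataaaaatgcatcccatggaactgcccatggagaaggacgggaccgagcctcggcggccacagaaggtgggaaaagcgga
Unc5c: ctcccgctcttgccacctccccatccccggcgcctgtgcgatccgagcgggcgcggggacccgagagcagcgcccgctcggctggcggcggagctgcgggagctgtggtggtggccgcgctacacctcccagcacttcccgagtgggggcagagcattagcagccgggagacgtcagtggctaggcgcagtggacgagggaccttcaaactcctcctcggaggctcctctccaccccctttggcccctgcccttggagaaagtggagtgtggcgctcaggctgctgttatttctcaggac
Unc5b: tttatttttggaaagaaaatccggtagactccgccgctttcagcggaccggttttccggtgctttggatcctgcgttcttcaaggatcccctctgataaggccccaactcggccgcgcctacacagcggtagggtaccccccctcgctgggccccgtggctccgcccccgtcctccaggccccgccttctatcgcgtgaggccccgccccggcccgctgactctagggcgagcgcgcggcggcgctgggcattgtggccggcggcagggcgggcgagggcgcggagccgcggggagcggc

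The motif AGGTCA stood at bases 5 to 10 of the Nrp1 window on the reverse strand and at bases 29 to 34 of the Ntn4 window on the forward strand. The Epha3, Unc5c and Unc5b windows held no match. It was found in 9 of the 55 members (16.4%), against 15.1% of the genes tested on the arrays and 18.1% of all genes in the table. Counted by window, the shares were 13.0% for the members, 12.8% for the tested genes and 16.3% for the whole table. Neither direct repeat was found in a member window, nor in any of the 10689 tested genes with a window, so the repeats cannot set the members apart. In the whole table of 27025 genes the one with 5 bases between was found in 3 genes and the one with 2 in 2 genes. A ratio of observed to expected CpG above 0.6 was found in 60.9% of member windows, against 63.6% of the windows of tested genes.

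The 75th percentile of the processed signal, to which each array was scaled, ran from 529 to 862 units, and 62.0% to 65.9% of spots lay well above background. On every array 55 to 63 of the 64 members were well above background, and 50 members were so on all 6. Values below are log2 signals relative to that percentile, so that 0 is the signal of the array's 75th percentile probe. They compare a gene between arrays and not one gene with another. Both undifferentiated arrays came from one slide and the other 4 from another, so a difference from the undifferentiated state cannot be told apart from slide. The difference between differentiated and aggregated cells lies within a slide. Among marker lists, the summed signal of 12 neuron markers ran from 18.4 to 170 in the AICD line and from 17.8 to 212 in the vector line. All 7 embryonal carcinoma markers measured were well above background on 5 of 6 arrays and 6 of them on the differentiated vector array, and their sum ran from 19.5 to 138 in the AICD line and from 5.22 to 139 in the vector line.

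**Figure D1:**
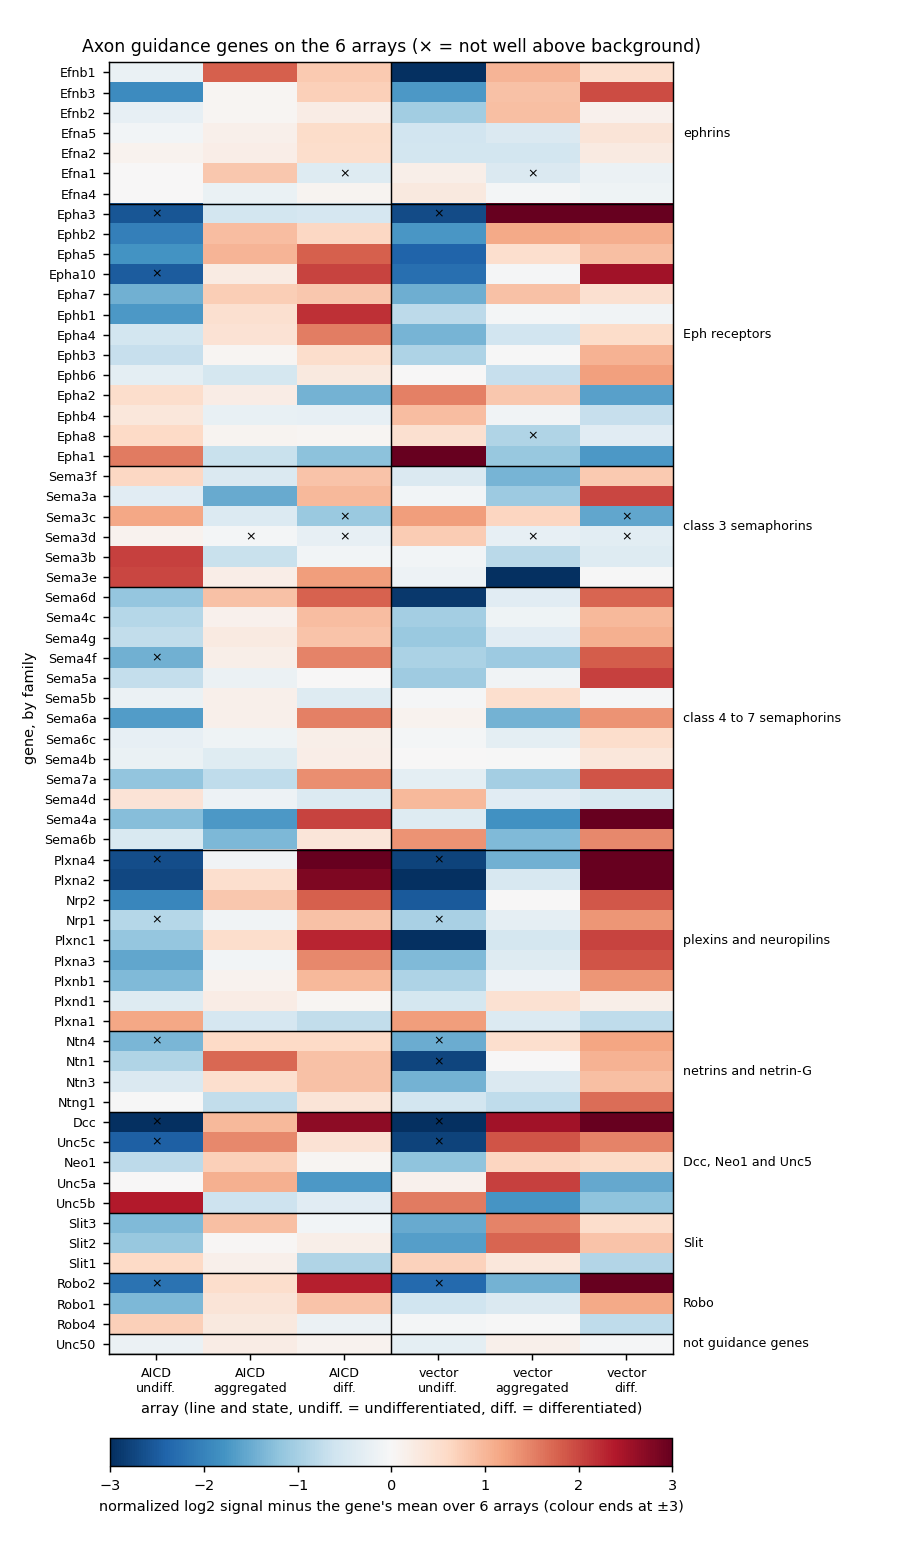
Signal of the 64 members (rows, by family) on the 6 arrays (columns), as normalized log2 signal minus the gene's mean over the arrays, with crosses where a gene was not well above background and the signal set to the array's detection limit where that was higher. Most plexin, neuropilin and Eph receptor rows turn from blue to red across the states in both lines, while most class 3 semaphorin rows are paler or bluer in the aggregated than in the undifferentiated columns.

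Aggregation with retinoic acid asks how the guidance genes respond as the cells enter neural differentiation. In the limma fit over both lines 27 members rose and 7 fell in aggregated against undifferentiated cells, 34 of 64 at adjusted p under 0.05, where 40.9% of all tested genes were called (14.8% higher and 26.1% lower). At an unadjusted p under 0.05 there were 42 members and 54.6% of all genes. All 9 plexins and neuropilins and all 5 netrin receptors were called, while 2 of the 7 ephrins and 6 of the 19 semaphorins of all classes were. The median difference of the members was 0.86 on the log2 scale (0.82 with genes dim on one side at their bound), against -0.27 for all tested genes (-0.26 with bounds). The probes used for Dcc, Epha3, Nrp1, Ntn4, Plxna4, Robo2 and Unc5c were kept only through later arrays, so they had to be higher here. Their calls cannot count as tests of a change, although they are in the counts, family totals and median above. With genes well above background on all 6 arrays, 20 members rose and 8 fell of 51, against 45.5% of all genes called. The error in limma comes from how far the lines' difference varies from state to state, with 2 arrays per state. Without either of the aggregated arrays, AICD or vector, 0 genes of the whole table were called (37 and 34 members at an unadjusted p under 0.05), and without the vector undifferentiated array 14 members were called. Background correction with normexp lost 6 of the 34 calls (Epha3, Epha10, Nrp1, Ntn1, Plxna4 and Robo2), quantile normalization 2 (Sema4d and Sema6b), and the fit with no filter on dim probes 7 (Efnb1, Ntn1, Sema3a, Sema3e, Sema4d, Sema6b and Slit2).

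Eph receptors rose in 6 of 13 cases and fell in 1, where 14.8% of all genes were called higher and 26.1% lower. Ephb2, a receptor of the ephrin-B proteins, gave -0.19, 2.77 and 2.48 in the AICD line and 0.12, 2.998 and 2.94 in the vector line in the undifferentiated, aggregated and differentiated states, an increase on aggregation of 2.92 ± 0.15 (adjusted p = 0.0075). Epha5, which takes part in topographic mapping, gave -3.64, -0.83 and -0.05 in the AICD line and -4.24, -1.32 and -0.94 in the vector line, an increase of 2.86 ± 0.17 (adjusted p = 0.0081). In both genes all aggregated and differentiated arrays lay above the undifferentiated ones, and a second probe gave 2.65 for Ephb2. Epha7 rose by 2.26 ± 0.18 (adjusted p = 0.0111) and Epha4, which binds ephrins of both classes, by 0.91 ± 0.15 (adjusted p = 0.0201). Epha10, which lacks kinase activity, was also called (adjusted p = 0.0129), with 1 of its 2 undifferentiated arrays dim. Epha3 was dim in both undifferentiated lines and at least 16.3-fold higher on the mean of the aggregated arrays (adjusted p = 0.0303), where its 2 lines lay far apart. Epha7 gave -1.85, 0.34 and 0.40 in the AICD line and -1.87, 0.46 and 0.08 in the vector line. Epha4 gave 0.35, 1.35 and 2.45 in the AICD line and -0.49, 0.33 and 1.46 in the vector line, and Epha10 -5.77, -3.03 and -1.25 in the AICD line and -5.54, -3.32 and -0.75 in the vector line. Within each line the undifferentiated array was the lowest in these 3 genes. Epha3 gave -7.44, -3.74 and -3.70 in the AICD line and -7.98, 0.13 and -0.21 in the vector line.

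Epha1, an Eph receptor of epithelia, was the one that fell. It gave -0.79, -3.01 and -3.57 in the AICD line and 0.88, -3.48 and -4.05 in the vector line, a decrease on aggregation of -3.29 ± 0.63 (adjusted p = 0.0263). Its undifferentiated arrays lay above the other 4 in both lines. Of the ephrins, Efnb1 and Efnb3 rose. Efnb1, a transmembrane ligand of Ephb receptors, gave 1.95, 3.94 and 2.95 in the AICD line and -1.75, 3.17 and 2.65 in the vector line. The aggregated arrays were above both undifferentiated arrays, by a mean of 3.45 ± 0.93, close to the threshold (adjusted p = 0.0497), and the 2 undifferentiated arrays were themselves far apart. Efnb3, a midline barrier to corticospinal axons, rose by 2.28 ± 0.31 (adjusted p = 0.0161), and the 4 ephrin-A genes had differences between -0.28 and 0.18. Efnb3 gave -0.34, 1.61 and 2.27 in the AICD line and -0.18, 2.44 and 3.52 in the vector line, each state above the one before it in both lines.

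The secreted class 3 semaphorins had negative differences on aggregation in 6 of 6 cases (median -1.34), where 61.5% of all genes had one, and 2 were called. Of the 6, Sema3d was dim on both aggregated arrays and was kept only through its undifferentiated arrays, so the filter fixed its sign. With no filter on dim probes neither call was kept. Sema3a, the ligand that collapses growth cones through Nrp1, gave -2.98, -4.15 and -1.67 in the AICD line and -2.73, -3.73 and -0.64 in the vector line. The aggregated arrays were the lowest 2 of the 6, with a decrease of -1.09 ± 0.25 (adjusted p = 0.0358) and -2.16 on a second probe. Sema3e, which signals through Plxnd1, gave 0.12, -1.69 and -0.62 in the AICD line and -2.04, -5.21 and -1.89 in the vector line. It fell by 2.49 ± 0.58 on the log2 scale (adjusted p = 0.0376), lowest in the aggregated state of each line, although the lines overlap across states. Sema3b, Sema3f and Sema3c had differences of -1.72, -0.998 and -1.09 and were not called. Sema3a, Sema3c, Sema3d and Sema3e are neighbours on chromosome 5 in the RefSeq gene order of GRCm38, with 0 protein-coding genes between Sema3d and Sema3a, 3 between Sema3a and Sema3e and 15 between Sema3e and Sema3c.

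Of the 13 membrane-bound semaphorins 2 were called higher and 2 lower, where 14.8% of all genes were called higher and 26.1% lower. The family count is thus no larger a result than that of genes at large. Both lower calls, Sema6b and Sema4d, were lost with quantile normalization (adjusted p = 0.0546 and 0.0516). Sema6d, a ligand of Plxna1, gave -1.09, 0.95 and 1.83 in the AICD line and -2.83, -0.28 and 1.80 in the vector line. It rose by 2.30 ± 0.46 on aggregation (adjusted p = 0.0287), and the states did not overlap. Sema4c rose by 0.94 ± 0.16 (adjusted p = 0.0225), with 0.06 on a second probe. Sema6b, a ligand of Plxna4, fell by 1.77 ± 0.47 and Sema4d, the ligand of Plxnb1, by 0.94 ± 0.24 on the log2 scale (adjusted p = 0.0478 and 0.0467). Sema5b was not called (0.43 ± 0.16), but its other 2 probes gave 3.86 and 3.48. Sema4c gave -0.37, 0.61 and 1.40 in the AICD line and -0.54, 0.35 and 1.45 in the vector line. Sema6b gave -2.45, -3.33 and -1.63 in the AICD line and -0.65, -3.30 and -0.55 in the vector line, and Sema4d -1.10, -1.66 and -1.92 in the AICD line and -0.54, -1.86 and -1.96 in the vector line. The aggregated arrays were the lowest 2 in Sema6b, while both undifferentiated arrays were the highest 2 in Sema4d.

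Plexins and neuropilins, the semaphorin receptors, rose in 8 of 9 cases, and in 6 of 9 with normexp, which lost Nrp1 (0.17) and Plxna4 (0.50). Plxna2, a receptor of class 6 semaphorins, gave -1.45, 1.81 and 4.09 in the AICD line and -1.91, 0.82 and 4.42 in the vector line. The 3 states did not overlap, and the aggregated cells were higher by 2.99 ± 0.36 (adjusted p = 0.0143), with 2.42 and 2.64 on its other probes. Nrp2, the co-receptor of Sema3f, gave 0.27, 3.06 and 4.02 in the AICD line and -0.29, 2.26 and 4.11 in the vector line. It was higher in aggregated cells by 2.67 ± 0.27 (adjusted p = 0.013), again without overlap between states. Plxnc1, the receptor of Sema7a, rose by 2.16 ± 0.45, Plxna3 by 1.21 ± 0.24, Plxnb1, the receptor of Sema4d, by 1.11 ± 0.23 and Plxnd1, the receptor of Sema3e, by 0.81 ± 0.17 (adjusted p between 0.0271 and 0.0316). Nrp1, the co-receptor of Sema3a, was dim before aggregation and at least 1.66-fold higher in aggregated cells (adjusted p = 0.0119). Plxna4 was called too, at least 3.82-fold higher (adjusted p = 0.0151), but its second probe, well above background on all 6 arrays, gave 0.11. Over the same states Plxnc1 gave -2.03, -0.34 and 1.42 in the AICD line and -4.01, -1.39 and 1.18 in the vector line. Plxna3 gave 0.08, 1.55 and 3.08 in the AICD line and 0.30, 1.25 and 3.52 in the vector line, and Plxnb1 -0.18, 1.26 and 2.11 in the AICD line and 0.21, 0.99 and 2.47 in the vector line. In these 3 genes each state lay above the one before it in both lines. Plxnd1 gave -0.76, -0.14 and -0.29 in the AICD line and -0.89, 0.11 and -0.18 in the vector line. Nrp1 gave -7.97, -5.03 and -4.04 in the AICD line and -7.42, -5.18 and -3.59 in the vector line, and the first probe of Plxna4 -6.57, -3.24 and 0.30 in the AICD line and -7.49, -4.56 and 0.43 in the vector line. The dim undifferentiated arrays were the lowest 2 in Nrp1 and Plxna4.

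Plxna1, a partner of neuropilins and of Sema6d, was the plexin that fell. It gave 0.62, -1.04 and -1.28 in the AICD line and 0.72, -0.96 and -1.31 in the vector line. The decrease on aggregation was -1.67 ± 0.15 (adjusted p = 0.0119), and both undifferentiated arrays lay above the other 4.

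Netrin receptors and netrins took part in the largest differences. Dcc, the receptor through which netrin-1 attracts commissural axons, gave -7.76, 0.44 and 2.14 in the AICD line and -7.86, 1.97 and 3.88 in the vector line in the undifferentiated, aggregated and differentiated states. Both undifferentiated arrays were below the detection limit, and both aggregated arrays lay far above them. The rise on aggregation was at least 132-fold, against the lowest measurable signal of the undifferentiated arrays (limma adjusted p = 0.00777). Unc5c, a receptor of netrin repulsion, gave -5.57, -1.68 and -2.68 in the AICD line and -7.35, -1.22 and -1.62 in the vector line over the same states, and was at least 19.5-fold higher in aggregated cells (adjusted p = 0.0183). Its 4 later arrays all exceeded the 2 undifferentiated ones, which were dim. The netrin Ntn4 was likewise dim before aggregation and at least 3.94-fold higher after it (adjusted p = 0.013).

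Unc5b, a netrin receptor that also acts in blood vessels, moved the other way. It gave 3.35, 0.36 and 0.63 in the AICD line and 2.53, -0.80 and -0.24 in the vector line. Both aggregated arrays lay below both undifferentiated arrays, and the gene fell by 3.16 ± 0.17 on the log2 scale (difference ± limma standard error, n = 2 arrays per state; adjusted p = 0.0075). Unc5a, another netrin receptor, stood at 1.13, 2.20 and -0.59 in the AICD line and at 1.25, 3.18 and -0.40 in the vector line. It rose by 1.502 ± 0.28 on aggregation (adjusted p = 0.0245) and its differentiated arrays were the lowest of the 6. Neo1, or neogenin, a receptor of netrins and of the repulsive guidance molecules, rose by 1.67 ± 0.27 (adjusted p = 0.0204). The attractant Ntn1 gave -4.04, -1.41 and -2.27 in the AICD line and -6.63, -3.13 and -2.09 in the vector line, with the undifferentiated vector array dim, and was also called (adjusted p = 0.0377). Ntn3 and Ntng1 were not called on aggregation, with differences of 0.95 and -0.48. Over the states Neo1 gave 1.18, 2.67 and 2.02 in the AICD line and 0.76, 2.59 and 2.53 in the vector line, with both undifferentiated arrays lowest. Ntn4 gave -6.89, -3.81 and -3.81 in the AICD line and -7.58, -3.91 and -3.23 in the vector line, and Ntn3 -0.32, 0.59 and 0.97 in the AICD line and -1.33, -0.34 and 1.01 in the vector line.

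**Figure D2:**
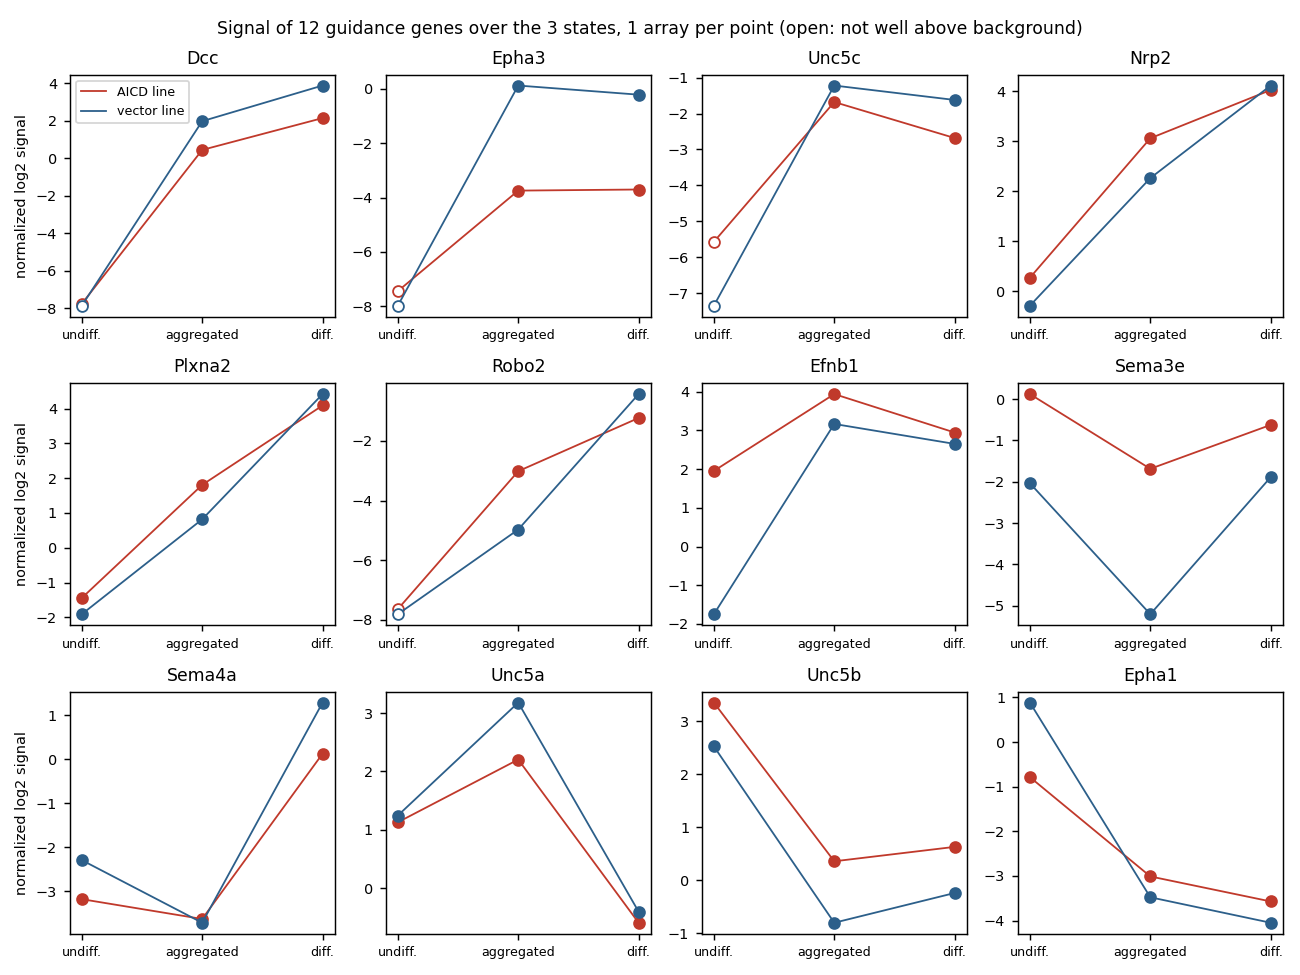
Normalized log2 signal (vertical axis, a separate scale in each panel) of 12 members in the undifferentiated, aggregated and differentiated states, 1 array per point, red for the AICD line and blue for the vector line, open circles where the gene was not well above background. Dcc, Epha3, Unc5c and Robo2 start from open circles in both lines, Unc5b and Epha1 drop on aggregation, and Sema3e and Sema4a are lowest in the aggregated state.

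Of the Slits 2 of 3 rose on aggregation, and of their Robo receptors 1 of 3, Robo2, which was not called with normexp (0.58, adjusted p = 0.277). Among all genes 14.8% were called higher. Slit3 rose by 2.61 ± 0.27 (adjusted p = 0.013) and Slit2, a midline repellent, by 2.30 ± 0.58 (adjusted p = 0.0432), while Slit1 differed by -0.40 and was not called. Slit2 gave 0.50, 1.68 and 1.82 in the AICD line and -0.01, 3.41 and 2.49 in the vector line, with the undifferentiated arrays the lowest 2. Robo2 gave -7.65, -3.02 and -1.23 in the AICD line and -7.82, -4.97 and -0.43 in the vector line. It was dim on both undifferentiated arrays and at least 3.58-fold higher in aggregated cells (adjusted p = 0.0259), with the second probe in the same direction. Robo1, next to Robo2 on chromosome 16 with 0 protein-coding genes between, had a difference of 0.96 ± 0.43 and was not called. Robo4, a Robo of endothelium, differed by -0.19. Slit3 gave -3.70, -1.47 and -2.47 in the AICD line and -3.90, -0.90 and -1.85 in the vector line. Slit1 gave -0.83, -1.28 and -2.32 in the AICD line and -0.73, -1.08 and -2.31 in the vector line, and Robo1 0.53, 2.28 and 2.73 in the AICD line and 1.29, 1.46 and 3.02 in the vector line. Slit3 was lowest on the undifferentiated arrays and Slit1 lowest on the differentiated arrays.

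Other genes of guidance signalling were counted from lists chosen by role. On aggregation 14.8% of all genes were called higher and 26.1% lower. Of 36 other cues and co-receptors 16 rose and 4 fell. They included Boc, a co-receptor for Shh (5.54), Cntn2, the adhesion protein of commissural axons (3.93, adjusted p = 0.0197), and Rgma, a ligand of Neo1 (adjusted p = 0.0126), on the upper side, and Cxcl12 (-2.78) on the lower. Of 55 intracellular effectors 16 rose and 5 fell, with 5.27 for Srgap3, a partner of Robo receptors, and 2.94 for the collapsin response mediator Dpysl3. Beside these, 7 of 12 neuron markers rose and 0 fell, and 0 of 7 embryonal carcinoma markers rose and 5 fell. Whether the rise of guidance genes follows the change of cell type was not tested.

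**Figure D3:**
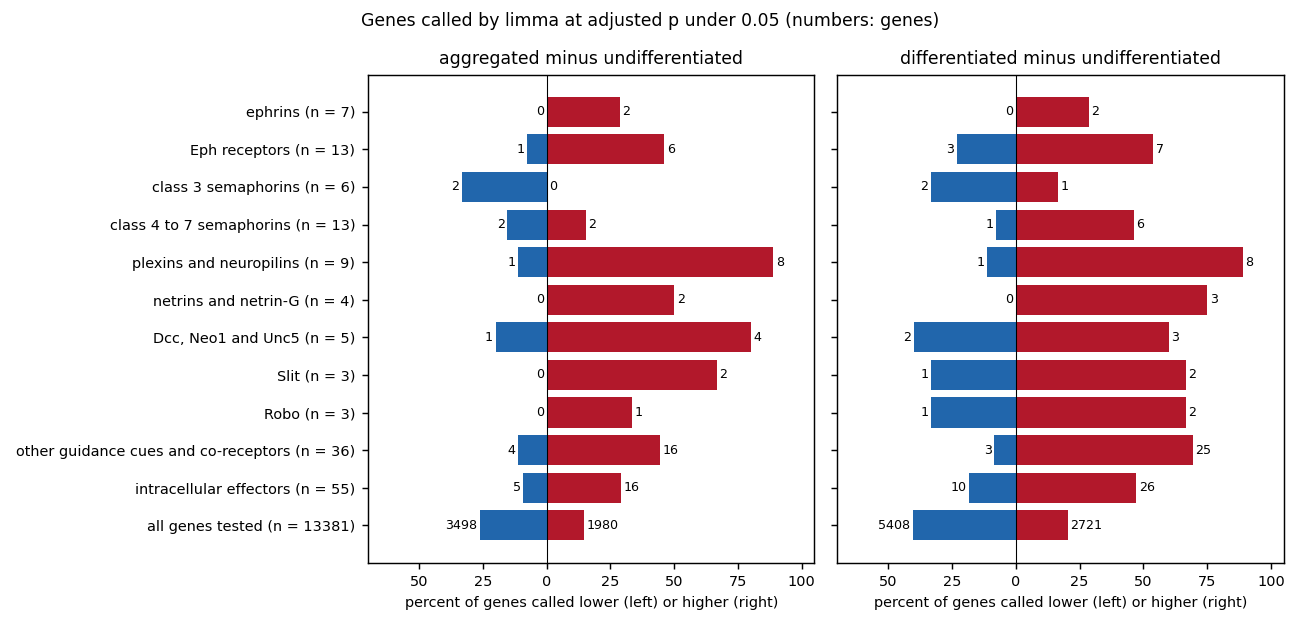
Percent of genes in each family or list (rows, n in brackets) called lower (left, blue) or higher (right, red) by limma at adjusted p under 0.05 for the aggregated and the differentiated state, each against the undifferentiated state, with the number of genes beside each bar. Plexins and neuropilins reach 8 of 9 higher in both panels, while class 3 semaphorins have 0 higher and 2 lower on aggregation and the bottom row gives all 13381 genes. Nrp1 and Plxna4, among those 8, had to be higher because their probes passed the filter only through later arrays.

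Replating compares differentiated with aggregated cells within a slide. No gene of the whole table passed adjusted p 0.05 in this comparison (percent called 0), so no member can be said to have changed here. At an unadjusted p under 0.05 there were 37 members of 64 (30 higher and 7 lower) and 32.8% of all genes. The median difference of the members was 0.59 (0.60 with bounds), against -0.10 for all genes. Calls did appear in 3 alternatives: 19 members with normexp background correction (10.4% of all genes), 15 with a prior that follows mean signal (8.62%) and 12 with genes measured on all 6 arrays (5.82%). Of these, 12 members were called in all 3, 9 of them higher (Sema4a, Plxna4, Plxna2, Sema3a, Sema7a, Plxna3, Sema3f, Epha4 and Sema4c) and 3 lower (Slit1, Epha2 and Unc5a). The share of all genes called in all 3 is not given, and the 3 alternatives rest on the same arrays. These calls therefore do not set the members apart from other genes. With genes measured on all 6 arrays, Plxna4 was represented by its other probe.

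Sema4a, a class 4 semaphorin also known from the immune system and the retina, gave -3.18, -3.63 and 0.12 in the AICD line and -2.29, -3.72 and 1.28 in the vector line. Differentiated arrays were the 2 highest in this gene, with a difference of 4.38 ± 0.36 from aggregated cells (adjusted p = 0.0674). Plxna4, a receptor of class 6 semaphorins, had a difference of 4.27 ± 0.40 (adjusted p = 0.0679) and 1.16 on its second probe, and Plxna2 one of 2.94 ± 0.36 (adjusted p = 0.0689). Sema3a differed by 2.79 ± 0.25 (adjusted p = 0.0679), so that both its differentiated arrays lay above all others. Sema7a, which has a GPI anchor and binds Plxnc1, gave -1.56, -1.12 and 1.01 in the AICD line and -0.66, -1.38 and 1.51 in the vector line, a difference of 2.51 ± 0.33 (adjusted p = 0.0689). Robo2 had 3.17 ± 0.71 (adjusted p = 0.0844). All 6 of these differences were positive in both lines.

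Unc5a had the most negative replating difference, -3.18 ± 0.28 (adjusted p = 0.0679), and its differentiated arrays lay below the other 4. Epha2, an ephrin-A receptor of epithelia and pluripotent cells, gave 1.36, 1.06 and -0.59 in the AICD line and 2.36, 1.65 and -0.80 in the vector line. Its difference on replating was -2.05 ± 0.34 (adjusted p = 0.0755). Slit1 differed by -1.14 ± 0.15 (adjusted p = 0.0689), and the differences of all 3 Slits were negative, as were those of 56.8% of all genes. Genes called higher on aggregation had replating differences of either sign. Dcc had 1.80 ± 0.52, Ephb2 -0.18 ± 0.15, Epha7 -0.16 ± 0.18, Neo1 -0.36 ± 0.27 and Slit3 -0.97 ± 0.27 (adjusted p between 0.106 and 0.576).

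Over the whole course, differentiated against undifferentiated, 34 members rose and 11 fell, 45 of 64, where 60.8% of all genes were called (20.3% higher and 40.4% lower). At an unadjusted p under 0.05 there were 50 members and 67% of all genes. The median was 1.76 for the members and -0.42 for all genes, and with genes measured on all 6 arrays 29 of 51 members rose and 9 fell (65.6% of all genes called). Without the vector differentiated array 16 members were called, against 37 to 41 without any other single array. All plexins and neuropilins, all netrin receptors and all Slits and Robos were called. With normexp, 5 of the 45 calls were lost (Epha3, Nrp1, Ntn1, Plxnd1 and Sema3a). The probes used for Dcc, Epha3, Nrp1, Ntn4, Plxna4, Robo2 and Unc5c passed the filter only through later arrays, so they had to be higher here. A call of such a probe is in the counts but cannot count as a test of a change. With that limit, Dcc was at least 460-fold and Robo2 at least 32.2-fold higher (limma adjusted p = 0.00503 and 0.00748). Plxna4 rose at least 73.7-fold by its first probe (adjusted p = 0.00503), but by 1.28 on the log2 scale on its second probe, which was measured on all 6 arrays. Plxna2 rose by 5.93 ± 0.36 (adjusted p = 0.0051). Semaphorins of classes 4 to 7 were called in 7 cases, 6 higher, among them Sema6d (3.78 ± 0.46), Sema4a (3.44 ± 0.36) and Sema7a (2.37 ± 0.33). Of the genes called lower, Epha1 fell by 3.86 ± 0.63, Unc5b by 2.74 ± 0.17, Epha2 by 2.55 ± 0.34 and Plxna1 by 1.96 ± 0.15 on the log2 scale (adjusted p between 0.00518 and 0.0119).

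Sema3c was dim on both differentiated arrays and at least 5.87-fold lower there than in undifferentiated cells (adjusted p = 0.0169). Sema3a was the class 3 semaphorin that rose over the whole course, by 1.70 ± 0.25 (adjusted p = 0.00995), although it had fallen on aggregation. With normexp its difference was 0.15 and was not called (adjusted p = 0.457), and its second probe gave 0.33. Of the other cues and co-receptors 25 rose and 3 fell, and of the intracellular effectors 26 rose and 10 fell. Among neuron markers 11 of 12 rose, and among embryonal carcinoma markers 6 of 7 fell. Over all genes 20.3% were called higher and 40.4% lower. Sema3d passed the filter through the undifferentiated arrays alone, so it had to be lower in differentiated cells. It was at least 1.65-fold lower there, and its call (limma adjusted p = 0.0411) cannot count as a test of a change. Members called here and not on aggregation also included Efna5, an ephrin-A of topographic mapping, with 2.63, 2.87 and 3.26 in the AICD line and 2.14, 2.26 and 3.09 in the vector line, and Ephb3, with -0.09, 0.66 and 1.13 in the AICD line and -0.32, 0.60 and 1.65 in the vector line. Sema4g gave -0.81, 0.21 and 0.80 in the AICD line and -1.17, -0.40 and 0.996 in the vector line, and Sema4f -6.07, -4.17 and -2.87 in the AICD line and -5.30, -5.43 and -2.52 in the vector line. Sema4f was dim on the undifferentiated AICD array. These 4 genes were higher on both differentiated arrays than on both undifferentiated ones. Ephb4, an Eph receptor of veins, gave -0.54, -1.10 and -1.14 in the AICD line and 0.04, -0.99 and -1.59 in the vector line, and Robo4 -1.90, -2.31 and -2.78 in the AICD line and -2.66, -2.62 and -3.37 in the vector line. Both of these were lower on the differentiated arrays.

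Each line was also followed on its own, as 1 array against 1 array with no test. On aggregation 28 of 54 members measured on both arrays differed at least 2-fold in the AICD line, 20 higher and 8 lower (27.3% of all genes, 11.2% higher and 16.1% lower), and 25 of 53 in the vector line, 15 higher and 10 lower (33.4%, with 12.4% higher and 21% lower). On replating there were 22 of 61 in the AICD line, 18 higher and 4 lower (11.1% of all genes, 6.39% higher and 4.69% lower), and 33 of 60 in the vector line, 30 higher and 3 lower (22.5%, with 11% higher and 11.5% lower). Over the whole course there were 31 of 52 in the AICD line, 24 higher and 7 lower (37.4% of all genes, 13.3% higher and 24.1% lower), and 39 of 54 in the vector line, 31 higher and 8 lower (50.1%, with 17.6% higher and 32.6% lower). Of 51 members measured on all 4 arrays of the aggregation step, 13 were at least 2-fold higher in both lines (8.12% of all genes) and 5 at least 2-fold lower in both (12.7% of all genes). On replating 17 of 60 were at least 2-fold higher in both lines (4.83% of all genes) and 3 at least 2-fold lower in both (3.24% of all genes).

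Efnb1 moved by 1.99 in the AICD line and 4.91 in the vector line on aggregation, and Slit2 by 1.18 and 3.42. Robo1 showed the reverse order, with 1.75 in the AICD line and 0.18 in the vector line, and Ephb1, which guides the ipsilateral retinal axons, with 2.19 and 0.71. These differences between single arrays were not tested. Sema6a, a ligand of Plxna2 and Plxna4, was the member at least 2-fold apart in opposite directions, with 1.82 in the AICD line and -1.52 in the vector line. Its second probe gave -0.52 and -1.06, so its probes disagree in the AICD line. Across the states Ephb1 gave -2.45, -0.26 and 1.45 in the AICD line and -1.52, -0.81 and -0.84 in the vector line and Sema6a -3.72, -1.90 and -0.53 in the AICD line and -1.94, -3.46 and -0.69 in the vector line.

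**Figure D4:**
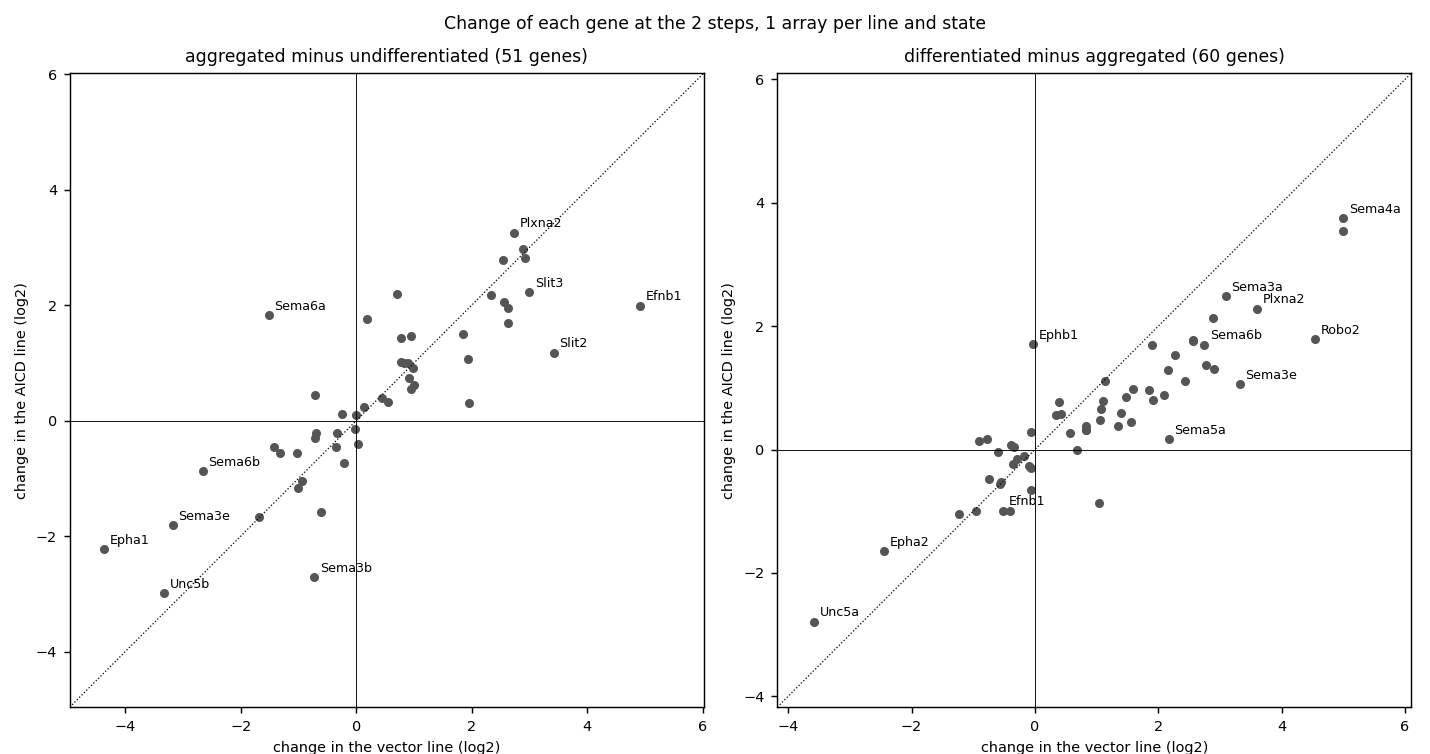
Change of each member measured on all 4 arrays of a step, in log2 units, in the vector line (horizontal) and the AICD line (vertical), for aggregation (left, 51 genes) and replating (right, 60 genes), with the dotted line where both are equal. Most points have the same sign in both lines, Sema6a lies at 1.82 in the AICD line and -1.52 in the vector line on aggregation, and on replating many of the upper points lie below the dotted line.

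The comparison of the lines asks whether AICD goes with a different level of guidance genes. Over the 3 states the limma fit called 0 of 64 members, where 47 genes (0.351%) of the whole table were called (0.209% higher and 0.142% lower). At an unadjusted p under 0.05 there were 11 members, 9 higher and 2 lower in the AICD line, and 12.5% of all genes. The median difference was -0.01 for the members and 0.00 for all genes. The sign of the difference was the same in all 3 states in 22 of 64 members (34.4%), against 35.9% of all genes. The difference of largest size of the same sign in every state was that of Sema3e, with 2.32 ± 0.48 (n = 3 arrays per line; adjusted p = 0.201). It was also the 1 member at least 2-fold apart in each state, by 2.16, 3.52 and 1.27 in the undifferentiated, aggregated and differentiated cells, and by 2.28, 5.53 and 1.59 on a second probe. Epha4 (0.95 ± 0.12, adjusted p = 0.0959) and Unc5b (0.95 ± 0.14, adjusted p = 0.117) were higher in the AICD line in all 3 states with small spread, and were not called.

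Within a state, the lines were compared as 1 array against 1 array. In undifferentiated cells 10 of 54 members measured on both arrays were at least 2-fold apart, 7 higher and 3 lower in the AICD line, against 8.36% of all genes (4.27% higher and 4.09% lower). Efnb1 had 1.95 in the AICD line and -1.75 in the vector line, a difference of 3.70. Sema3e (2.16), Sema3b (2.14), Plxnc1 (1.98), Sema6d (1.74), Sema3f (1.07) and Ntn3 were also higher in the AICD line, and Sema6b (-1.80), Sema6a (-1.78) and Epha1 (-1.67) lower. Ntn1 was dim on the vector array, and its AICD signal was at least 3.62-fold higher. Across the states Sema3b gave -1.38, -4.09 and -3.52 in the AICD line and -3.52, -4.25 and -3.82 in the vector line, and Sema3f -1.46, -2.51 and -1.22 in the AICD line and -2.53, -3.47 and -1.31 in the vector line. The undifferentiated AICD array was the highest of Sema3b.

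In aggregated cells 14 of 61 members were at least 2-fold apart, 10 higher and 4 lower in the AICD line, against 7.33% of all genes (4.21% higher and 3.12% lower). With genes measured on all 6 arrays it was 7. Sema3e had -1.69 in the AICD line and -5.21 in the vector line, a difference of 3.52. Robo2 (1.96, with 1.03 on the second probe), Ntn1 (1.73), Sema6a (1.56), Plxna4 (1.33) and Sema4f (1.26) followed, and the second probes of Sema6a and Plxna4 gave 0.10 and -0.12. Epha3 was the farthest on the lower side, with -3.74 in the AICD line and 0.13 in the vector line, a difference of -3.87. Slit2 (-1.73), Dcc (-1.53) and Sema3c (-1.06) were also lower in the AICD line.

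In differentiated cells 11 of 61 members were at least 2-fold apart, 2 higher and 9 lower in the AICD line, against 8.55% of all genes (4.55% higher and 4% lower). Epha3 had -3.70 in the AICD line and -0.21 in the vector line, a difference of -3.49. Sema5a (-2.06), Dcc (-1.74), Ntng1 (-1.30), Efnb3 (-1.24), Sema4a (-1.16), Sema6b (-1.07), Unc5c (-1.06) and Sema3a (-1.03) were lower as well. Ephb1 had 1.45 in the AICD line and -0.84 in the vector line, a difference of 2.28, and Sema3e differed by 1.27. No plexin, neuropilin, Slit or Robo was 2-fold apart in this state. All 2-fold differences within a state kept their sign with normexp and with quantile normalization. Across the states Sema5a gave -2.63, -2.09 and -1.92 in the AICD line and -2.99, -2.04 and 0.14 in the vector line, and Ntng1 -2.17, -2.91 and -1.79 in the AICD line and -2.72, -2.93 and -0.50 in the vector line. In both genes the differentiated vector array was the highest of the 6.

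Epha3, a receptor of ephrin-A ligands that also marks mesenchyme, was called when the fit took the 4 arrays of the second slide only. The limma difference was -3.68 (adjusted p = 0.0419), where 0.628% of all genes were called. Leaving out either undifferentiated array amounts to that same fit, because the other array is then alone in its state. The second probe of Epha3 gave -4.07 in aggregated and -3.22 in differentiated cells. Dcc, with 1 probe, differed by -1.06 ± 0.43 over the 3 states (adjusted p = 0.434). Beside these, the 11 mesenchyme and fibroblast markers measured had a summed signal of 0.853 to 2.32 in the AICD line and of 4.45 to 33.6 in the vector line. The AICD arrays detected 7 to 10 of these 11 and the vector arrays 9 to 11. A signal 2-fold or more lower in AICD cells was found in 6 of the 8 measured on both aggregated arrays and in 7 of 7 in differentiated cells. Other marker sums differed between the lines too. The embryonal carcinoma sum was 19.5 in the AICD line and 11.4 in the vector line in aggregated cells, and 20.8 and 5.22 in differentiated cells. The sum of 8 neural progenitor markers was 68.3 in the AICD line and 43.0 in the vector line in undifferentiated cells. It was 134 and 211 in aggregated cells, and 124 and 183 in differentiated cells. For the 12 neuron markers it was 18.4 in the AICD line and 17.8 in the vector line in undifferentiated cells. In aggregated cells it was 94.5 and 59.1, and in differentiated cells 170 and 212. The part of these cell types in the line differences of Epha3, Dcc, Slit2 and the other members was not tested.

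Outside the members, 5 of 29 other cues and co-receptors measured on both arrays were at least 2-fold apart between the lines in undifferentiated cells, 6 of 30 in aggregated cells and 6 of 34 in differentiated cells. Of the intracellular effectors 3 of 53, 1 of 55 and 0 of 55 were in undifferentiated, aggregated and differentiated cells. Over all genes the shares in these states were 8.36%, 7.33% and 8.55%.

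**Figure D5:**
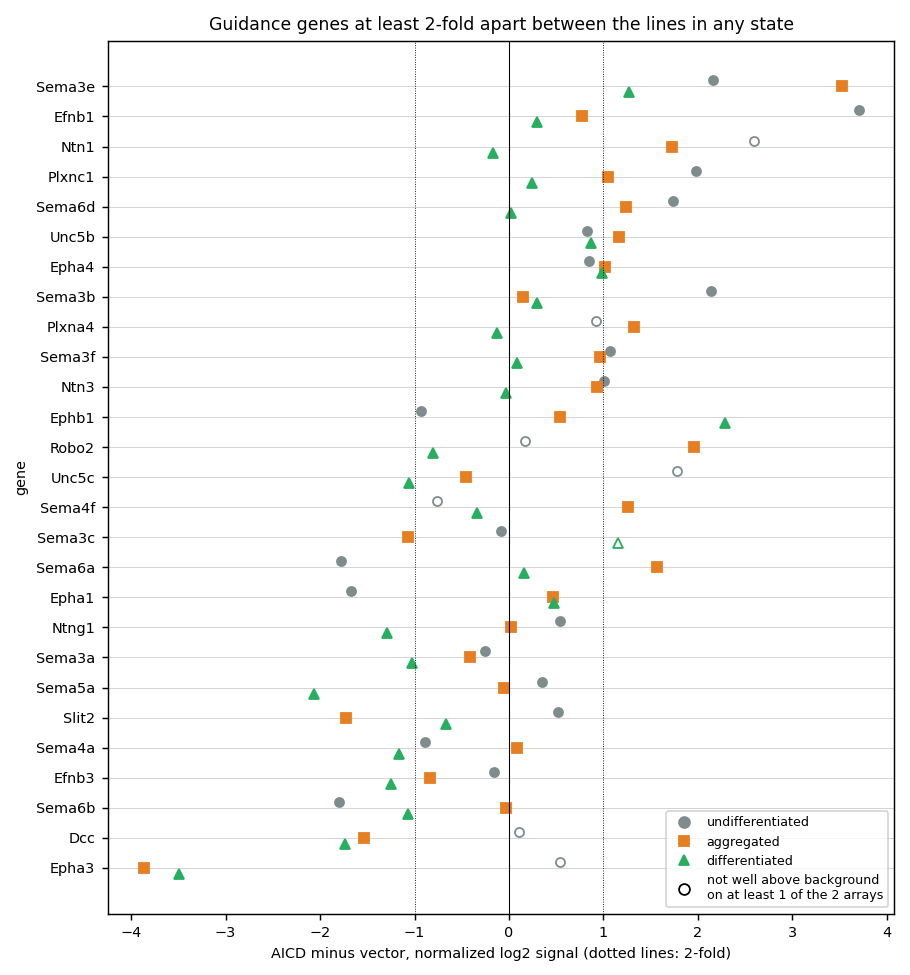
Difference of the AICD array minus the vector array, in log2 units, for each member at least 2-fold apart in any state (rows), with grey circles for undifferentiated, orange squares for aggregated and green triangles for differentiated cells, open where a gene was not well above background on at least 1 of both arrays, and dotted lines at 2-fold. Sema3e lies right of the 2-fold line in all 3 states, and Epha3 lies at -3.87 and -3.49 in aggregated and differentiated cells.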

How the data were processed

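Per the file headers, Agilent Feature Extraction 10.1.1.1 made the deposited processed signal, an intensity from which background and spatial trend were removed on each array alone. Arrays were not scaled to each other. The deposited spot and background brightness, intensities too, served for 1 alternative. The 75th percentile of log2 processed signal was subtracted from each array, spots of a probe were averaged, and 1639 control spots of 45018 were left out. Probes took symbols through RefSeq accessions in the GRCm38 annotation (24844 of 41174, 17178 genes; 27 probes lacked a value). A probe had to be well above background on at least 2 arrays, and a gene took its probe of highest mean. Of 26 members with several such probes, 23 agreed in sign with the other probes on aggregation, 20 on replating and 22 between the lines. limma 3.58.1 in R 4.3.3 fitted state and line with eBayes over 13381 genes (2 residual and 2.04 prior degrees of freedom), two-sided, with Benjamini-Hochberg adjustment over all of them at 0.05. The labels name no separate cultures, so the spread may be technical.

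For a gene dim on every array of one side, the fold is a lower bound: the mean signal of the bright side over the dim side's mean of, per array, the higher of the gene's own signal and the lowest signal among probes well above background. The number of arrays limits the precision. Alternatives were normexp (offset 50, on the median spot signal, since the mean named beforehand is not among the columns), quantile normalization, no and a stricter filter, the mean of a gene's probes, a trended prior, no line term, 1 slide and each array left out. The fit was tested on simulated data with the same small, independent noise in every gene. That test does not cover the larger and unequal spread of the real genes. Every member may be named. Values on all arrays are given for members called in any of the 4 fits and for those with the largest differences between steps or lines. The members and lists were chosen with earlier results of these data known. The authors' own processed table was not used.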

Additional observations from a re-analysis of the deposited data

Results flagged for a closer look

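Sema6a was at least 2-fold apart in opposite directions on aggregation, with a log2 difference of 1.82 in the AICD line and -1.52 in the vector line. Each value is 1 array against 1 array. Its second probe gave -0.52 in the AICD line and -1.06 in the vector line, so the opposite direction was seen with 1 of its 2 probes. The difference between the lines was not tested. No group held the 4 or more arrays that a search for single aberrant samples needs.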

How the results depend on the processing

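Without an array in turn, the count of members called ranged from 0 to 1 between the lines, from 0 to 30 on aggregation, from 0 to 0 on replating and from 16 to 41 over the whole course. The 0 on aggregation came without the AICD or the vector aggregated array, and the 1 between the lines (Epha3) without either undifferentiated array. Replating calls were 19 with normexp, 12 with genes measured on all 6 arrays and 15 with the trended prior, and 0 in the other settings. The second slide alone gave the same member, Epha3, between the lines, as the same fit as without either undifferentiated array. With genes measured on all 6 arrays, 7 members were 2-fold apart in aggregated cells. Dcc, Epha3, Ntn1, Robo2, Sema3c and Sema4f, 2-fold apart under the main filter, were not measured on all 6, and Plxna4 took its other probe. The cause of the other changes was not tested, apart from the fewer genes of the stricter filter. Over the other settings, aggregation calls ranged from 26 to 37 and those of the whole course from 38 to 46, and 0 called members reversed. Quantile normalization moved the median of all genes to -0.12 on aggregation, against -0.27, and to -0.24 over the whole course, against -0.42. Uncalled members changed sign with the scaling in 6 cases between the lines (Epha7, Ntn4, Robo2, Sema3c, Sema6a and Unc5c), 1 on aggregation (Efna1), 4 on replating (Epha8, Ntn1, Sema4b and Unc50) and 1 over the whole course (Sema4b). Signals near background, as in Nrp1, Robo2 and Sema3d, give bounds only. The fit takes line as a block. Without that term 26 members were called on aggregation and 41 over the whole course. No paired analysis was possible because the labels give no replicate numbers, apart from that line term.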
